A study of Mus musculus with 9 samples.

Results

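The 10 genes described here belong to the amino acid stress response (Atf4, Ddit3, Asns, Chac1, Trib3 and Sesn2) and to serine synthesis and its next step (Phgdh, Psat1, Psph and Shmt2). They were taken by symbol from a table of 55385 mouse genes, in which 11 rows carry these symbols. The additional row is a short second Ddit3 entry with 6 counts over all 9 libraries, which was not tested. All 10 genes passed the filter on low counts, as did 15519 genes in all.

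RNA was measured in 3 groups of 3 biological replicates, all of sorted kidney cells that carried the red reporter tdTomato in male mice 9 to 12 weeks old. The d14 group came from Sox9IRES-CreERT2/+:R26RtdT/+ mice with ischemia-reperfusion injury of both kidneys, given tamoxifen on days 10 and 12 and collected on day 14. The 48 h group came from mice of the same genotype given tamoxifen at injury and collected 48 h later. The uninjured group came from Slc34a1IRES-CreERT2/+:R26RtdT/+ mice, in which the Cre recombinase follows a phosphate transporter gene of the proximal tubule. The reporter marks whichever cell expresses the driver gene during tamoxifen, so the Sox9 groups may hold cells other than proximal tubule cells. Driver, injury and tamoxifen schedule differ together, so their effects on a gene cannot be told apart.

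Cells short of an amino acid, or with misfolded protein in the endoplasmic reticulum (ER), phosphorylate the translation factor eIF2. General translation then slows while the mRNA of the transcription factor ATF4 is translated more, so ATF4 activity can change without a change in its mRNA. ATF4 switches on genes that import and make amino acids, among them the enzymes that build serine from a glycolytic intermediate. Serine in turn feeds glycine and the folate cycle, and the kidney is known as an organ that makes serine.

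Total counts were 19239354 to 30414758 at d14, 8036054 to 23794029 at 48 h and 31585507 to 51631204 in uninjured libraries. The share of counts on mitochondrial genes was 15.2% to 25.2% at d14, 32.7% to 39.2% at 48 h and 25.1% to 29.2% in uninjured libraries. Levels are CPM, read counts relative to library size, on library sizes scaled by TMM, a method that matches the bulk of genes between libraries. Sox9 averaged 33.2 ± 5.07 CPM at d14, 14.9 ± 7.28 CPM at 48 h and 0.274 ± 0.318 CPM in uninjured cells (SD, n = 3 each). The 10 proximal tubule markers summed to 3010 to 4230 CPM at d14, 5640 to 11200 CPM at 48 h and 16500 to 19000 CPM in uninjured libraries, and 9 of them were lower at d14 than in uninjured cells. The 5 loop of Henle markers summed to 2980 to 5280 CPM at d14, 818 to 1060 CPM at 48 h and 300 to 369 CPM in uninjured libraries. Of them 4 were higher and 1, Cldn10, lower at d14 than in uninjured cells, and Umod alone had 2310 to 4270 CPM at d14. The 5 markers of the distal convoluted and connecting tubule summed to 1990 to 3590 CPM at d14, 214 to 395 CPM at 48 h and 65.1 to 111 CPM in uninjured libraries. All 5 were higher at d14 than in uninjured cells. Slc12a3 alone had 1750 to 3340 CPM at d14, and Pvalb was at 0.634 CPM in d14 replicate 1. Neutrophil markers (8 genes) summed to 3.43 to 6.06 CPM at d14, 114 to 349 CPM at 48 h and 2.84 to 8.14 CPM in uninjured libraries, with Ly6g at 0 counts in 48 h replicate 1 and in all uninjured libraries. Macrophage markers (10 genes) summed to 186 to 410 CPM at d14, 125 to 439 CPM at 48 h and 61.3 to 104 CPM in uninjured libraries. Cd74 alone had 91.4, 287 and 192 CPM in d14 replicates 1 to 3, and 1 of the markers was higher and 4 lower at d14 than at 48 h. Endothelial markers (8 genes) summed to 26.4 to 56.1 CPM at d14, 81.6 to 673 CPM at 48 h and 72.6 to 136 CPM in uninjured libraries. In such mixtures, fewer cells of a type and less RNA per cell cannot be told apart.

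The C/EBP-ATF response element is the site that ATF4 binds with a C/EBP partner, and Asns is a classic gene that carries it. Its core TGATGNAA was searched on both strands in the 250 bases before each RefSeq transcript start (GRCm38.p6), where all 10 genes had a window and Psat1 had 2. The core was found in the windows of Asns and Chac1 and in none of the other 9 windows, against 3.45% of 32851 windows of all genes. The stretches with a match are shown, 5′ to 3′ on the gene's strand with the match in capitals. A match is a description of the letters and does not show binding.
Asns, chr6:7693214-7693243, minus strand: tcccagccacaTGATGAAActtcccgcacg
Chac1, chr2:119351038-119351067, plus strand: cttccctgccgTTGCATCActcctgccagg
The Asns match begins at position -23 from the RefSeq start, within the first exon of the longer GENCODE M21 gene, and reads along the gene. The Chac1 match begins at position -193 and lies on the opposite strand.

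Of the 10 genes, Asns and Phgdh were higher and Psph and Shmt2 lower at d14 than in uninjured cells. At 48 h Asns, Phgdh and Psat1 were higher and Sesn2 and Shmt2 lower than in uninjured cells. Between the Sox9 groups, Sesn2 was higher and Psat1, Psph and Shmt2 were lower at d14 than at 48 h. The mRNA of Atf4 itself was called in none of the 3 comparisons. Calls are at an adjusted p under 0.05 (edgeR quasi-likelihood test, Benjamini-Hochberg over all genes tested).

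Against uninjured cells, 2 of 10 were higher and 2 lower at d14, where 25.1% of all genes tested were higher and 20.7% lower. In 48 h against uninjured cells 3 were higher and 2 lower, against 17.4% and 11.7% of all genes. Between d14 and 48 h cells 1 was higher and 3 lower at d14, against 16.8% and 16.3% of all genes. The median log2 fold changes of the 10 genes were 0.32, 1.08 and -0.49 in these comparisons, beside 0.06, 0.02 and 0.05 for all genes. The comparisons share libraries and are not independent of each other.

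The scaling matters for the d14 group. Its TMM factors were 1.21 to 1.48, against 0.848 to 0.912 at 48 h and 0.846 to 0.902 in uninjured libraries. On library totals alone the median over all genes moved to 0.63 (log2) in both d14 comparisons. The calls then became 7315 higher and 1417 lower in place of 3898 and 3214 in d14 against uninjured cells, and 6812 and 934 in place of 2604 and 2533 in d14 against 48 h cells. Among the 10 genes they became 6 higher and 1 lower in d14 against uninjured cells, and 3 higher and 2 lower in d14 against 48 h cells.

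**Figure D1:**
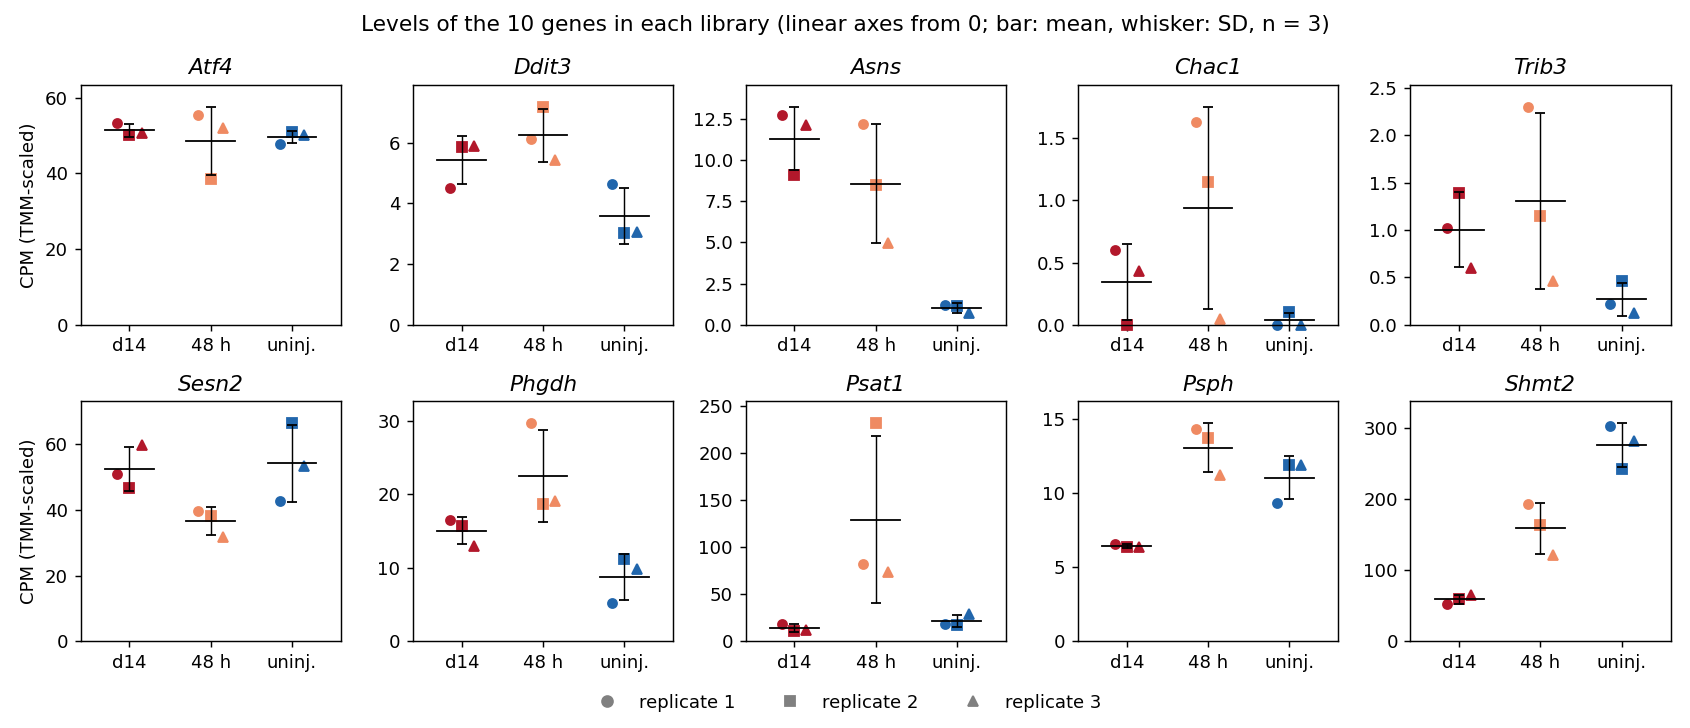
Level of each of the 10 genes in every library, in TMM-scaled CPM on linear axes from 0, with points for libraries, a line for the group mean and a whisker for the SD (n = 3). The Asns points of the d14 and 48 h groups all lie above the uninjured ones, Psat1 is highest in the 48 h group, and Shmt2 is lowest at d14.

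Atf4 (ENSMUSG00000042406.8, chromosome 15, 80255184 to 80257541) encodes the transcription factor at the centre of the response. It had 53.4, 50.1 and 50.7 CPM in d14 replicates 1 to 3, 55.5, 38.5 and 51.9 CPM in 48 h replicates and 47.8, 51 and 50 CPM in uninjured replicates. All groups overlapped, and the single low library, 48 h replicate 2, is also the shallowest. The log2 fold change was 0.05 ± 0.13 (SE) in d14 against uninjured cells (95% interval -0.24 to 0.34, adjusted p = 0.784). It was -0.02 ± 0.13 in 48 h against uninjured cells (-0.31 to 0.27, adjusted p = 0.929). On library totals alone Atf4 was at 0.62 in d14 against uninjured cells (adjusted p = 0.00541), beside a median of 0.63 over all genes in that scaling.

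Ddit3 (ENSMUSG00000025408.15, chromosome 10, 127290774 to 127296288) encodes CHOP, a transcription factor of prolonged ER stress. It had 4.51, 5.86 and 5.90 CPM at d14, 6.11, 7.19 and 5.44 CPM at 48 h and 4.65, 3.02 and 3.07 CPM in uninjured libraries. The 48 h libraries lay above all uninjured ones, and the d14 group overlapped both. Neither difference was called, with 0.60 ± 0.29 at d14 (adjusted p = 0.118) and 0.79 ± 0.30 at 48 h (adjusted p = 0.0667) against uninjured cells. DESeq2 called the 48 h difference (adjusted p = 0.0323), and on library totals alone the d14 value was called at 1.14 (adjusted p = 0.00745). Ddit3 shares 68 exonic bases with Mars on the opposite strand.

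Asns (ENSMUSG00000029752.12, chromosome 6, 7675169 to 7693254) encodes asparagine synthetase, which makes asparagine from aspartate and glutamine. It had 12.7, 9.10 and 12.1 CPM at d14, 12.2, 8.48 and 4.98 CPM at 48 h and 1.22, 1.12 and 0.685 CPM in uninjured libraries. Every d14 and 48 h library lay above every uninjured library, and the Sox9 groups overlapped each other. Asns rose by 3.48 ± 0.38 on the log2 scale at d14 (11.2-fold, adjusted p = 2.22e-05) and by 3.08 ± 0.38 at 48 h (8.45-fold, adjusted p = 1.73e-04) against uninjured cells. Both calls held under all 16 alternative settings. Between d14 and 48 h cells the log2 fold change was 0.40 ± 0.34 (95% interval -0.34 to 1.15, adjusted p = 0.392).

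Chac1 and Trib3 are stress-induced genes downstream of ATF4 and CHOP, for a glutathione-degrading enzyme and for a pseudokinase that restrains AKT signalling. Chac1 (ENSMUSG00000027313.3, chromosome 2, 119351229 to 119354381) had 17, 0 and 16 counts at d14, 29, 8 and 1 counts at 48 h and 0, 3 and 0 counts in uninjured libraries. Both Sox9 groups thus overlapped uninjured cells. Over the summed counts of a group the ratio to uninjured cells was 13.9 at d14 (interval 4.35 to 70.6) and 31.1 at 48 h (interval 9.85 to 157), with exact 95% intervals for counting error only. All 3 uninjured counts came from replicate 2. The fitted log2 fold change was 3.36 ± 1.74 at d14 and 4.76 ± 1.79 at 48 h, and without uninjured replicate 2 it was 6.26 at d14 and 7.71 at 48 h, values that depend on the fit's handling of a group at 0. The test over libraries called neither (adjusted p = 0.138 at d14 and 0.0684 at 48 h), although DESeq2 called the 48 h difference (adjusted p = 0.0223).

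Trib3 (ENSMUSG00000032715.9, chromosome 2, 152337422 to 152344032) had 1.02, 1.39 and 0.599 CPM at d14, 2.30, 1.15 and 0.461 CPM at 48 h and 0.217, 0.456 and 0.127 CPM in uninjured libraries. Both Sox9 groups lay above the uninjured group, at 48 h only just. The log2 fold changes of 1.91 ± 0.84 at d14 (adjusted p = 0.0861) and 2.29 ± 0.86 at 48 h (adjusted p = 0.0673) were not called. DESeq2 called both (adjusted p = 0.0399 at d14 and 0.0168 at 48 h), limma voom called d14 (adjusted p = 0.0364), as did the fit on library totals alone (adjusted p = 0.0311). Without 48 h replicate 3 the 48 h value was called at 2.71 (adjusted p = 0.0483). Without 48 h replicate 1 it was 1.54 (adjusted p = 0.282).

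Sesn2 (ENSMUSG00000028893.8, chromosome 4, 132492032 to 132510501) encodes a leucine sensor that holds back the growth kinase complex mTORC1. It had 51.1, 46.6 and 59.9 CPM at d14, 39.8, 38.2 and 31.8 CPM at 48 h and 42.8, 66.4 and 53.3 CPM in uninjured libraries. The 48 h libraries were the lowest, below all libraries of the other groups. Sesn2 fell by 0.57 ± 0.17 at 48 h against uninjured cells (adjusted p = 0.0274) and was higher by 0.52 ± 0.17 at d14 than at 48 h (adjusted p = 0.0347). Sesn2 lost its call against uninjured cells without 48 h replicate 3 (adjusted p = 0.0982), uninjured replicate 2 (0.0984) or uninjured replicate 3 (0.0624), and with limma voom (0.0548). The d14 against 48 h call was lost without d14 replicate 1 (adjusted p = 0.0664), d14 replicate 3 (0.128) or 48 h replicate 3 (0.110).

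Among the 48 h libraries, replicate 1 was highest and replicate 3 lowest in Asns, Chac1, Trib3 and Sesn2, and also in Psph and Shmt2. The other members did not follow that order, with Ddit3 and Psat1 highest and Atf4 and Phgdh lowest in replicate 2. Replicate 1 is also the 48 h library with the most endothelial marker RNA, at 673 CPM against 81.6 and 136 CPM in replicates 2 and 3. It had the most proximal tubule marker RNA as well, at 11200 CPM against 5640 and 6840 CPM. Neutrophil markers ran the other way, at 114, 223 and 349 CPM in replicates 1 to 3. The part of these cells in the values was not tested. Without 48 h replicate 1, Asns remained higher than in uninjured cells, by 2.70 on the log2 scale (adjusted p = 2.60e-04).

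Serine is made from 3-phosphoglycerate by Phgdh, Psat1 and Psph in turn, and Shmt2 then splits it to glycine in mitochondria. Phgdh (ENSMUSG00000053398.11, chromosome 3, 98313170 to 98339990) encodes the dehydrogenase that commits carbon to the pathway. It had 16.5, 15.7 and 13 CPM at d14, 29.7, 18.7 and 19.1 CPM at 48 h and 5.23, 11.2 and 9.90 CPM in uninjured libraries. The groups did not overlap, with 48 h highest and uninjured lowest. Phgdh rose by 1.37 ± 0.28 at 48 h (2.58-fold, adjusted p = 0.00452) and by 0.78 ± 0.28 at d14 (1.72-fold, adjusted p = 0.0396) against uninjured cells. The 48 h call held under all 16 alternatives, with 1.11 without replicate 1. The d14 call was lost without d14 replicate 1, 2 or 3 (adjusted p = 0.107, 0.0930 and 0.050) and without uninjured replicate 1 or 3 (adjusted p = 0.121 and 0.0592). Between d14 and 48 h cells the value was -0.59 ± 0.28 (adjusted p = 0.131).

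Psat1 (ENSMUSG00000024640.9, chromosome 19, 15904678 to 15947337) encodes the aminotransferase of the next step. It had 18.7, 11.4 and 12.5 CPM at d14, 81.9, 232 and 74.2 CPM at 48 h and 18.4, 17.8 and 29.3 CPM in uninjured libraries. The 48 h libraries lay far above the others, with replicate 2 apart from its group, while d14 and uninjured libraries overlapped. Psat1 rose by 2.56 ± 0.48 at 48 h against uninjured cells (5.88-fold, adjusted p = 0.00512) and was lower by -3.18 ± 0.49 at d14 than at 48 h (adjusted p = 0.00203). Without 48 h replicate 2 these became 1.84 (adjusted p = 7.23e-04) and -2.46 (adjusted p = 2.06e-04). In d14 against uninjured cells the value was -0.62 ± 0.46 (adjusted p = 0.310).

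Psph (ENSMUSG00000029446.14, chromosome 5, 129765558 to 129787449) encodes the phosphatase that releases serine. It had 6.55, 6.37 and 6.34 CPM at d14, 14.3, 13.7 and 11.2 CPM at 48 h and 9.34, 11.9 and 11.9 CPM in uninjured libraries. The d14 libraries lay below all others and within a narrow range, and the other groups overlapped. Psph fell by 0.78 ± 0.19 at d14 against uninjured cells (adjusted p = 0.00502) and was lower by -1.02 ± 0.19 at d14 than at 48 h (adjusted p = 0.00221). On library totals alone both calls were lost, at -0.21 (adjusted p = 0.428) and -0.44 (adjusted p = 0.110), with the median of all genes at 0.63. Psph shares 452 exonic bases with Cct6a on the opposite strand, and no source used here states the strand setting of the counting. Cct6a itself was lower by -0.51 ± 0.11 at d14 than in uninjured cells (adjusted p = 0.00283).

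Shmt2 (ENSMUSG00000025403.5, chromosome 10, 127517123 to 127522444) encodes mitochondrial serine hydroxymethyltransferase, which passes a carbon of serine to folate. It had 52.6, 58.9 and 65.6 CPM at d14, 193, 164 and 121 CPM at 48 h and 304, 243 and 282 CPM in uninjured libraries. The groups did not overlap, with d14 lowest and uninjured highest. Shmt2 fell by 2.23 ± 0.18 at d14 (adjusted p = 2.14e-06) and by 0.80 ± 0.17 at 48 h (adjusted p = 0.00519) against uninjured cells. It was lower by -1.43 ± 0.17 at d14 than at 48 h (adjusted p = 1.72e-04), and all 3 calls held under all 16 alternatives. Proximal tubule markers followed the same order of groups, with sums of 3010 to 4230 CPM at d14, 5640 to 11200 CPM at 48 h and 16500 to 19000 CPM in uninjured libraries. Their part in the Shmt2 values was not tested.

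**Figure D2:**
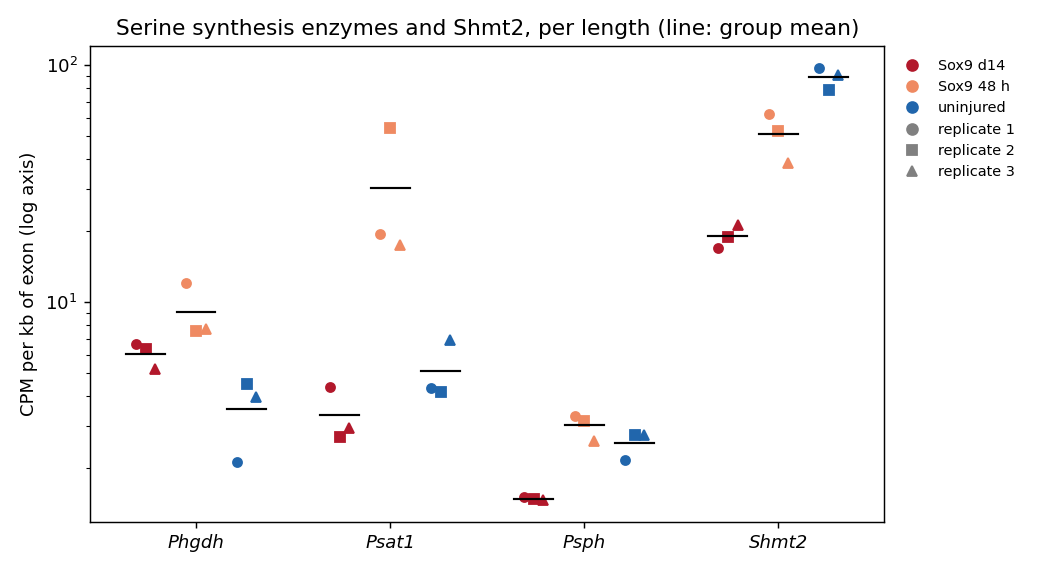
Level per length of the serine synthesis genes and Shmt2 in every library, in CPM per kb of exon on a log axis, in the order of the enzymes in the pathway, with a line for each group mean. Psat1 rises to a mean of 30.4 at 48 h, and Shmt2 is at 19.0 at d14 against 88.8 in uninjured cells.

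Per length of exon the balance of these enzymes differed between groups. At d14 Phgdh, Psat1, Psph and Shmt2 averaged 6.06, 3.34, 1.48 and 19.0 CPM per kb. At 48 h they averaged 9.05, 30.4, 3.02 and 51.1 CPM per kb. In uninjured cells the means were 3.54, 5.13, 2.55 and 88.8 CPM per kb. Phgdh thus lay above Psat1 in every d14 library and below it in every 48 h library, and on either side of it in uninjured libraries.

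Over all 10 genes, the levels per kb at d14 ran from Atf4 (21.8) over Shmt2 (19.0), Sesn2 (15.1), Phgdh (6.06), Asns (4.14), Psat1 (3.34), Ddit3 (3.17) and Psph (1.48) to Trib3 (0.471) and Chac1 (0.211). Shmt2 and Sesn2 overlapped there, as did Asns, Psat1 and Ddit3, and Trib3 and Chac1. At 48 h the order was Shmt2 (51.1), Psat1 (30.4), Atf4 (20.6), Sesn2 (10.5), Phgdh (9.05), Ddit3 (3.65), Asns (3.13), Psph (3.02), Trib3 (0.613) and Chac1 (0.575), and only the steps from Atf4 to Sesn2, from Phgdh to Ddit3 and from Psph to Trib3 separated neighbours in every library. In uninjured cells the order was Shmt2 (88.8), Atf4 (21), Sesn2 (15.6), Psat1 (5.13), Phgdh (3.54), Psph (2.55), Ddit3 (2.09), Asns (0.369), Trib3 (0.126) and Chac1 (0.0214). There Psat1 and Phgdh, Phgdh and Psph, Psph and Ddit3, and Trib3 and Chac1 overlapped, and the other neighbours did not.

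**Figure D3:**
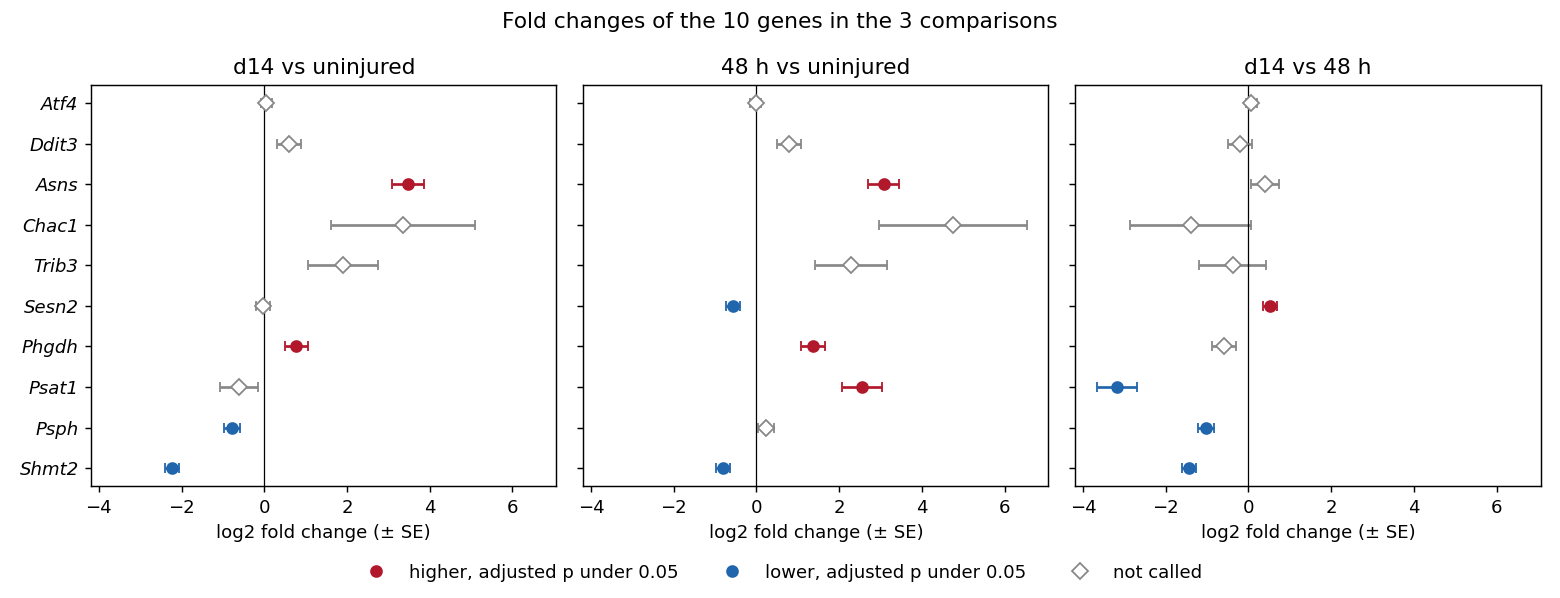
Log2 fold change of each of the 10 genes with its SE in the 3 comparisons (9 libraries, 3 per group), filled circles for called genes and open diamonds for the others. Asns is called higher against uninjured cells in both Sox9 groups, at 3.48 and 3.08, and Shmt2 is called lower in all 3 panels.

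Genes with a pattern like that of 3 members were sought among 8550 genes of at least 10 CPM, by the root mean square difference of centred log2 CPM over the 9 libraries. Closest to Atf4 were Cdc37 (0.05), Dctn1 (0.06) and Golga7 (0.07), and Atf4 itself spread by 0.14 around its mean. Closest to Asns were Ehd2 (0.37), Slc5a3 (0.38) and Ly6c1 (0.43), where Asns spread by 1.56. Closest to Phgdh were Slco2a1 (0.29), Sipa1l2 (0.30) and H2ax (0.32), where Phgdh spread by 0.66.

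Upstream of Atf4, the list of 17 genes of eIF2 phosphorylation and its reversal had 4 higher and 2 lower at d14 than in uninjured cells, and 11 higher and none lower on library totals alone. At 48 h against uninjured cells 1 was higher and 1 lower. Beside these counts, 25.1% of all genes tested were higher and 20.7% lower at d14 than in uninjured cells. At 48 h the shares of all genes were 17.4% and 11.7%, and in d14 against 48 h cells 16.8% and 16.3%. These shares apply to the lists below as well. The median log2 fold change of the 17 genes was -0.06 at d14 and -0.01 at 48 h against uninjured cells. Eif2ak4, the kinase GCN2 that senses uncharged tRNA, had 15.3 to 17.8 CPM at d14, 6.73 to 10.3 CPM at 48 h and 8 to 9.62 CPM in uninjured libraries. It was higher by 0.90 ± 0.19 at d14 than in uninjured cells (adjusted p = 0.00254) and by 0.95 ± 0.20 at d14 than at 48 h (adjusted p = 0.00408). Eif2ak2, the kinase PKR that senses double-stranded RNA, averaged 29.6 ± 1.58 CPM at d14, 24.9 ± 2.49 CPM at 48 h and 12.9 ± 2.13 CPM in uninjured cells. It rose by 1.19 ± 0.15 at d14 (adjusted p = 6.47e-05) and by 0.95 ± 0.15 at 48 h (adjusted p = 9.7e-04) against uninjured cells. Eif2ak3, the ER stress kinase PERK, rose by 0.52 ± 0.12 at d14 (adjusted p = 0.005), as did Ppp1r15a (GADD34), which guides the phosphatase that reverses eIF2 phosphorylation, by 0.89 ± 0.21 (adjusted p = 0.00437). Impact, an inhibitor of GCN2, fell by 1.04 ± 0.18 at d14 (adjusted p = 7.71e-04) and by 0.85 ± 0.19 at 48 h (adjusted p = 0.00586). Against 48 h cells, 2 were higher and 1 lower at d14. That became 1 higher and none lower without d14 replicate 2, 2 lower without 48 h replicate 2, none lower without 48 h replicate 3, and 11 higher and none lower on library totals alone.

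Of 25 other stress transcription factors and ATF4 targets 24 were tested (not Fgf21), and 12 were higher and 7 lower at d14, and 10 higher and 5 lower at 48 h, against uninjured cells. The median log2 fold change was 0.69 at d14 and 0.73 at 48 h. Ddit4, another brake on mTORC1, averaged 39.1 ± 8.46 CPM at d14, 11.6 ± 2.70 CPM at 48 h and 2.64 ± 0.375 CPM in uninjured cells. It rose by 3.88 ± 0.23 at d14 (adjusted p = 2.81e-07) and by 2.14 ± 0.22 at 48 h (adjusted p = 5.81e-05). Aldh18a1 of proline synthesis averaged 15.6 ± 1.88 CPM at d14, 4.87 ± 2.09 CPM at 48 h and 0.608 ± 0.286 CPM in uninjured cells, and rose by 4.68 ± 0.43 at d14 (adjusted p = 6.09e-06) and 3.04 ± 0.41 at 48 h (adjusted p = 3.48e-04). Eif4ebp1, an inhibitor of cap-dependent translation, averaged 20.7 ± 3.77 CPM at d14, 20.2 ± 4.32 CPM at 48 h and 5.55 ± 1.77 CPM in uninjured cells. Nupr1, a stress-induced chromatin protein, averaged 10.3 ± 2.93 CPM at d14, 7.94 ± 2.28 CPM at 48 h and 0.292 ± 0.264 CPM in uninjured cells. Both were called higher in each Sox9 group than in uninjured cells.

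Other targets ran the other way. Cth, which makes cysteine, averaged 25.1 ± 1.07 CPM at d14, 72.1 ± 18.0 CPM at 48 h and 115 ± 9.36 CPM in uninjured cells. It fell by 2.2 ± 0.17 at d14 (adjusted p = 1.8e-06) and by 0.68 ± 0.16 at 48 h (adjusted p = 0.00996). Gpt2, which makes alanine from pyruvate, was lower by -1.66 ± 0.35 at d14 than in uninjured cells (adjusted p = 0.00415) and by -2.26 ± 0.36 at d14 than at 48 h (adjusted p = 0.00177). Herpud1, an ER quality control gene, was lower by -1.46 ± 0.21 at d14 than in uninjured cells (adjusted p = 1.8e-04). Against 48 h cells, 4 of the list were higher and 3 lower at d14, and 7 higher and 2 lower on library totals alone.

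Of 10 amino acid transporters linked to ATF4, 6 were higher in each Sox9 group than in uninjured cells, while 2 were lower at d14 and 1 at 48 h. The 2 lower at d14 became 1 without d14 replicate 1, 2 or 3, 48 h replicate 1 or 3 or uninjured replicate 1 or 2. They were Slc3a2 and Slc1a4, named after their values were seen. Slc3a2 averaged 105 ± 2.42 CPM at d14, 163 ± 4.76 CPM at 48 h and 260 ± 57.8 CPM in uninjured cells. It was called lower in both, at -1.30 ± 0.15 at d14 (adjusted p = 3.07e-05) and -0.67 ± 0.15 at 48 h (adjusted p = 0.00586). The list summed to 356 to 404 CPM at d14, 318 to 363 CPM at 48 h and 288 to 374 CPM in uninjured libraries. The glutamine carrier Slc1a5 averaged 69.6 ± 5.27 CPM at d14, 29.9 ± 7.92 CPM at 48 h and 3.02 ± 0.383 CPM in uninjured cells. It rose by 4.53 ± 0.21 at d14 (adjusted p = 4.54e-08) and by 3.32 ± 0.20 at 48 h (adjusted p = 1.28e-06). Slc7a1, a carrier of arginine and lysine, averaged 33.2 ± 11.4 CPM at d14, 10.9 ± 2.85 CPM at 48 h and 0.987 ± 0.0876 CPM in uninjured cells, and rose by 5.07 ± 0.30 at d14 (adjusted p = 2.84e-07) and 3.49 ± 0.29 at 48 h (adjusted p = 1.26e-05). The neutral amino acid carrier Slc38a2 averaged 104 ± 14.5 CPM at d14, 64.0 ± 13.3 CPM at 48 h and 14.4 ± 1.31 CPM in uninjured cells. Its relative Slc38a1 averaged 16.2 ± 1.1 CPM at d14, 7.06 ± 1.50 CPM at 48 h and 0.828 ± 0.234 CPM in uninjured cells. Slc1a5, Slc7a1, Slc38a2 and Slc38a1 were also called higher at d14 than at 48 h. In that comparison 4 of the list were higher and 2 lower, with 1 lower when any d14 library or 48 h replicate 1 or 3 was left out, and 5 higher and none lower on library totals alone. Marker sums of the loop of Henle and of the distal convoluted and connecting tubule were likewise highest at d14 and lowest in uninjured libraries. Their part in the values of these 4 carriers, and of Ddit4 and Aldh18a1, was not tested.

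Of 20 cytosolic aminoacyl-tRNA synthetases, which load amino acids onto tRNA and include known ATF4 targets, 1 was higher and 2 lower at d14 than in uninjured cells, against 13 higher and none lower on library totals alone. At 48 h 2 were higher and none lower than in uninjured cells. The 2 became 1 without d14 replicate 1 or 3 or uninjured replicate 1 or 3, and 0 without 48 h replicate 3 or uninjured replicate 2 or on library totals alone. Vars, for valine, averaged 66.9 ± 7.93 CPM at d14, 48.0 ± 4.79 CPM at 48 h and 34.8 ± 2.70 CPM in uninjured cells, and was higher by 0.94 ± 0.12 at d14 (adjusted p = 9.8e-05). Farsb, a subunit for phenylalanine, was lower by -0.62 ± 0.15 at d14 than in uninjured cells (adjusted p = 0.00471) and higher by 0.46 ± 0.15 at 48 h (adjusted p = 0.0365). Dars, for aspartate, was lower by -0.63 ± 0.12 at d14 than in uninjured cells (adjusted p = 0.00126). Between d14 and 48 h cells 1 was higher and 2 lower at d14. That became none higher without d14 replicate 1, 2 higher and 4 lower without 48 h replicate 2, and 11 higher and 1 lower on library totals alone. The list summed to 936 to 1070 CPM at d14, 1030 to 1140 CPM at 48 h and 1040 to 1080 CPM in uninjured libraries.

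Of 27 other serine, glycine and folate-cycle genes 24 were tested (not Tdh, Sds and Agxt), and 5 were higher and 14 lower at d14, and 5 higher and 12 lower at 48 h, against uninjured cells, with a median log2 fold change of -0.93 at d14 and -0.42 at 48 h. The 5 higher became 3 at d14 without d14 replicate 3 or uninjured replicate 3, and 3 at 48 h without uninjured replicate 2 or 3. Sfxn1, the mitochondrial serine importer, averaged 78.1 ± 5.11 CPM at d14, 213 ± 18.2 CPM at 48 h and 260 ± 7.47 CPM in uninjured cells. It fell by 1.74 ± 0.11 at d14 against uninjured cells (adjusted p = 4.83e-07), and its value of -0.29 ± 0.11 at 48 h was not called (adjusted p = 0.065). Srr, which turns L-serine into D-serine, averaged 40.7 ± 5.11 CPM at d14, 95.7 ± 12.4 CPM at 48 h and 131 ± 8.20 CPM in uninjured cells. Agxt2, a mitochondrial aminotransferase, averaged 14.1 ± 4.71 CPM at d14, 34.3 ± 5.36 CPM at 48 h and 108 ± 8.05 CPM in uninjured cells. Both were called lower in each Sox9 group than in uninjured cells, as was Amt of the glycine cleavage system (-1.30 ± 0.18 at d14 and -1.08 ± 0.18 at 48 h). Fpgs, which adds glutamates to folate, was lower by -1.33 ± 0.17 at 48 h than in uninjured cells (adjusted p = 2.65e-04), with -0.01 ± 0.17 at d14 (adjusted p = 0.96), and was higher by 1.31 ± 0.17 at d14 than at 48 h (adjusted p = 2.88e-04). As for Shmt2, proximal tubule marker sums were lowest at d14 and highest in uninjured libraries, and their part in these values was not tested.

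Mthfd2, the mitochondrial folate enzyme that acts after Shmt2, moved opposite to it. It averaged 6.42 ± 2.57 CPM at d14, 5.33 ± 2.08 CPM at 48 h and 0.428 ± 0.0256 CPM in uninjured cells. Mthfd2 rose by 3.89 ± 0.46 at d14 (adjusted p = 4.03e-05) and by 3.64 ± 0.46 at 48 h (adjusted p = 2.06e-04) against uninjured cells. The mitochondrial folate genes Mthfd1l and Aldh1l2, chosen after their values were seen, rose as well. Mthfd1l rose by 2.44 ± 0.41 at d14 (adjusted p = 5.84e-04) and by 2.51 ± 0.42 at 48 h (adjusted p = 0.00124). Aldh1l2 rose by 2.48 ± 0.84 at d14 (adjusted p = 0.0314) and by 3.65 ± 0.87 at 48 h (adjusted p = 0.00972). Amt, another mitochondrial folate gene of the list, was called lower in both comparisons, at -1.30 ± 0.18 at d14 and -1.08 ± 0.18 at 48 h. Mthfd2l and Slc25a32 were called in neither. Mthfd2l, a relative of Mthfd2, was at 0.76 ± 0.34 at d14 (adjusted p = 0.0876) and 0.03 ± 0.35 at 48 h (adjusted p = 0.964), and the folate carrier Slc25a32 at -0.33 ± 0.21 at d14 (adjusted p = 0.225) and -0.22 ± 0.21 at 48 h (adjusted p = 0.485). At d14 against 48 h, 1 gene of the list was higher and 10 lower, with 2 higher without d14 replicate 1 and 3 without 48 h replicate 2. On library totals alone 4 were higher and 6 lower in that comparison.

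The list of ER chaperones had 9 of 18 genes higher and none lower at 48 h than in uninjured cells. These genes follow the other arms of the response to misfolded protein. Beside chaperones the list holds the transcription factor Xbp1 and the degradation genes Edem1, Sel1l and Syvn1. Xbp1 was among the 9, and these degradation genes were not. Hspa5 (BiP), the main chaperone of the ER, averaged 261 ± 23.6 CPM at d14, 600.0 ± 55.7 CPM at 48 h and 285 ± 16.9 CPM in uninjured cells. Manf, a secreted ER stress protein, had 29.7 to 33.5 CPM at d14, 77.3 to 82.2 CPM at 48 h and 29.4 to 31.1 CPM in uninjured libraries. Creld2, another secreted ER stress protein, averaged 18.2 ± 2.96 CPM at d14, 47.3 ± 4.73 CPM at 48 h and 18.0 ± 1.85 CPM in uninjured cells. At 48 h against uninjured cells Hspa5 rose by 1.07 ± 0.12 (adjusted p = 1.01e-04), Manf by 1.40 ± 0.10 (adjusted p = 3.67e-06) and Creld2 by 1.39 ± 0.15 (adjusted p = 7.83e-05).

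At d14, 1 gene of the chaperone list was higher and 3 lower than in uninjured cells, and 12 higher and 1 lower on library totals alone. The 1 higher, Sdf2l1 (0.68 ± 0.25, adjusted p = 0.0425), was not called without d14 replicate 3, 48 h replicate 3 or uninjured replicate 1 or 2. Edem1, of ER-associated degradation, fell by 1.18 ± 0.14 (adjusted p = 4.92e-05) and Dnajc3, an inhibitor of PERK, by 0.78 ± 0.15 (adjusted p = 0.00118) at d14 against uninjured cells. Set against 48 h cells, 13 were lower and none higher at d14, 8 were lower without d14 replicate 2, and 4 were lower and 4 higher on library totals alone. Manf was lower by -1.33 ± 0.10 (adjusted p = 1.49e-05) and Hspa5 by -1.20 ± 0.12 (adjusted p = 6.71e-05) there.

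**Figure D4:**
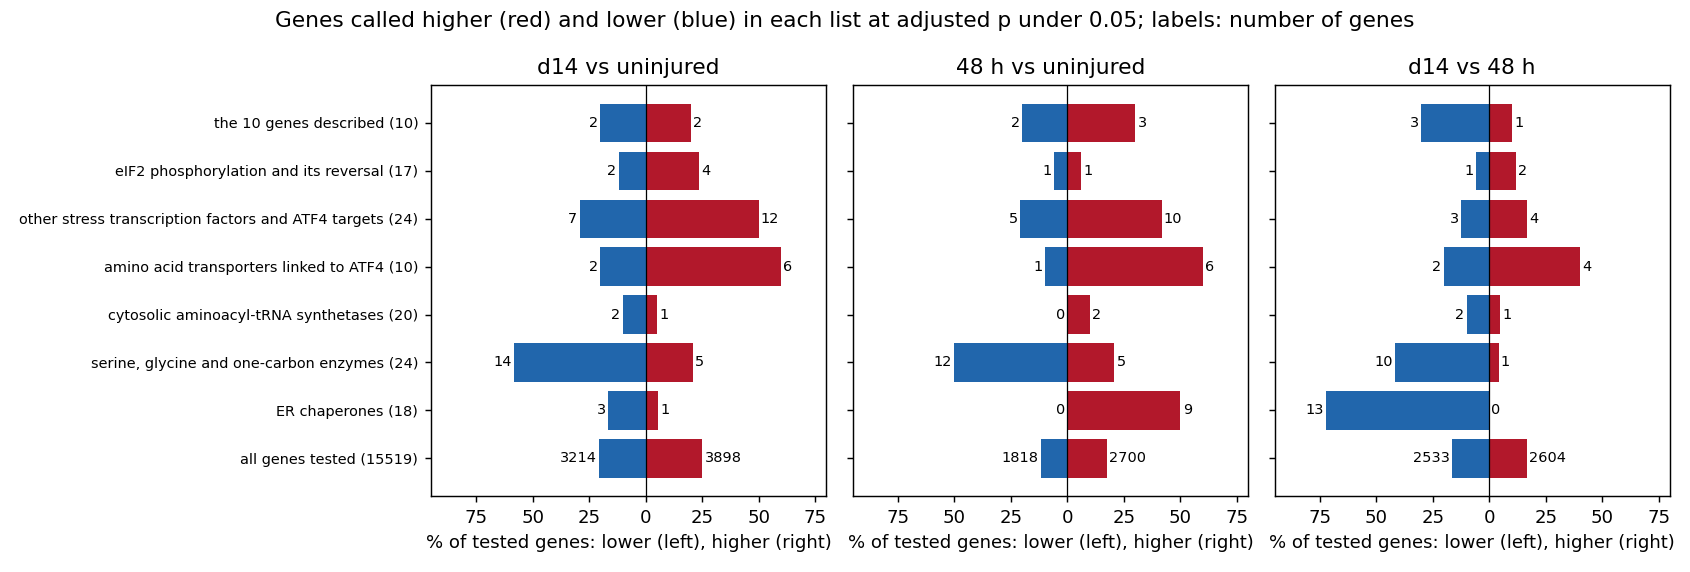
Share of the tested genes of each list called lower (blue, left) and higher (red, right) in the 3 comparisons, with the number of genes beside each bar and all 15519 genes tested in the lowest row. Amino acid transporters have 6 of 10 higher against uninjured cells in both Sox9 groups. The list of ER chaperones, which also holds Xbp1 and degradation genes, has 9 of 18 higher at 48 h and 13 of 18 lower in d14 against 48 h cells.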

How the data were processed

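The authors deposited expected counts per gene and library as whole numbers, not scaled to a common depth; the file headers bear the name RSEM gives its gene tables. The submitters' processing notes name the aligner STAR 2.6.1 and the quantifier RSEM 1.2.28 without roles, and mouse and human builds. No source used here states the annotation release or the strand setting. Of 55385 gene identifiers, 54487 match GENCODE M21 (GRCm38), the source of coordinates and exon lengths. The 92 spike-in rows held 0 counts.

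The tests came from edgeR 4.0.16 (R 4.3.3): filterByExpr (minimum count 10, total 15), TMM, and 1 robust quasi-likelihood fit of all 9 libraries with a mean per group. SE is the log2 fold change over the square root of F. Intervals of fold changes use the fit's degrees of freedom. Alternatives used DESeq2 1.42.0 and limma 3.58.1. The script was tested on simulated data.

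Named genes are all members, per list and comparison up to 4 called genes with the smallest p, and the nearest patterns. A further gene under this rule is not reported here. Members and lists were chosen with earlier results of these data known. The list of relatives is under the other observations. Further markers were the fibroblast, T and B cell, principal and intercalated cell lists, of which 3 of 6, 0 of 1, 5 of 6 and 5 of 6 tested genes were higher at d14 than in uninjured cells.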

Additional observations from a re-analysis of the deposited data

How the results depend on the processing

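Results were recomputed under 16 alternatives, 7 other fits and 9 that leave out 1 library, except that Chac1 against uninjured cells has 15, with no value in the fits of only the groups compared. Of the fold changes of single members so obtained, 449 kept their side of the threshold, 17 lost a call and 11 gained one. Only 1 changed direction with a call, Sesn2 in d14 against uninjured cells, at 0.52 on library totals alone against -0.04. The 449 include changes of direction where neither fit made a call. Trib3 in d14 against 48 h cells, at -0.38, thus ran from -0.80 to 0.37 with 1 library left out.

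On library totals alone the calls in d14 against uninjured cells were 7315 higher and 1417 lower over all genes, and 6 and 1 among the members. Between d14 and 48 h cells they were 6812 higher and 934 lower over all genes, with 3 members higher. DESeq2 called 6 members higher at 48 h against uninjured cells in place of 3, and limma voom called 1 lower in place of 2. RLE factors, no filter on low counts and fits of only the groups compared moved no count of members or of all genes by over 1.5 times.

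With 1 library left out, the members called higher at d14 against uninjured cells numbered 1 to 2 and those lower 2. At 48 h against uninjured cells they numbered 3 to 4 higher and 1 to 2 lower, and in d14 against 48 h cells 0 to 1 higher and 3 lower. Over all genes, those lower at 48 h against uninjured cells numbered 1147 to 1995, with 1147 and 1208 without uninjured replicates 1 and 3.

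Same-numbered libraries did not deviate together (correlations -0.13 to 0.02), so the numbers were not taken as pairs. Of 6 libraries in each comparison, 2, 0 and 0 correlated best with their own number, in d14 against uninjured, 48 h against uninjured and d14 against 48 h cells. With the replicate block, 1 member was higher at d14 and 1 lower at 48 h against uninjured cells, and 0 were higher in d14 against 48 h cells. Phgdh at d14 (adjusted p = 0.0751) and Sesn2 at 48 h (0.0555) against uninjured cells, and Sesn2 in d14 against 48 h cells (0.0609), were then not called.

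Depth limits Chac1, with 33, 38 and 3 counts over the d14, 48 h and uninjured groups. A count of 0 allows 3 counts, or 0.0651 to 0.431 CPM depending on the library.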

Other observations

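Relatives of the 10 genes were measured beside them, and 4 of 7 were higher and 2 lower at d14 than in uninjured cells (1 lower without any 1 of the d14 libraries). Trib1, a relative of Trib3 that guides protein degradation, averaged 28.6 ± 1.63 CPM at d14, 29.6 ± 9.20 CPM at 48 h and 3.61 ± 0.182 CPM in uninjured cells (SD, n = 3 each). On the log2 scale it rose by 2.99 ± 0.22 at d14 (adjusted p = 1.54e-06) and by 3.03 ± 0.23 at 48 h (adjusted p = 5.58e-06) against uninjured cells. Trib2 averaged 19.5 ± 3.09 CPM at d14, 52.0 ± 18.8 CPM at 48 h and 55.3 ± 38.6 CPM in uninjured cells and was lower at d14 than in uninjured cells (-1.50 ± 0.47, adjusted p = 0.0286). Sesn3 rose by 0.87 ± 0.20 at d14 (adjusted p = 0.00383) and by 0.99 ± 0.20 at 48 h (adjusted p = 0.00374). Sesn1 was not called, with 0.28 ± 0.33 at d14 and 0.03 ± 0.34 at 48 h.

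Shmt1, the cytosolic partner of Shmt2, averaged 70.9 ± 17.6 CPM at d14, 50.1 ± 6.56 CPM at 48 h and 42.4 ± 6.41 CPM in uninjured cells, and was higher by 0.74 ± 0.19 at d14 than in uninjured cells (adjusted p = 0.00658). Chac2, the other cytosolic enzyme of the Chac family, averaged 6.53 ± 0.639 CPM at d14, 14.3 ± 4.13 CPM at 48 h and 19.4 ± 0.578 CPM in uninjured cells and was lower by -1.57 ± 0.20 at d14 than in uninjured cells (adjusted p = 8.22e-05). Atf5, a transcription factor related to Atf4, rose by 1.78 ± 0.34 at d14 (adjusted p = 0.00139) and by 2.16 ± 0.35 at 48 h (adjusted p = 0.00105). At 48 h against uninjured cells 3 of the 7 were higher and none lower (1 lower without 48 h replicate 1). Between d14 and 48 h cells none was higher and 2 were lower at d14. Leaving out any d14 or 48 h library left 1 lower, and 1 was higher without d14 replicate 1 and 2 without 48 h replicate 2. On library totals alone 1 was higher and none lower in that comparison. In d14 against uninjured cells that scaling gave 5 higher and 1 lower.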
